A study of Homo sapiens with 18 samples.

Results

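SND1, CDK2AP2, HID1, TRIM55, BEST1 and ARMCX3 are 6 of the 25435 rows of a gene count table from HEK293doxERN2 cells. They were chosen by their measured counts, which were higher in doxycycline-treated than in untreated cells without stress, and are limited to genes that belong neither to the endoplasmic reticulum (ER) folding machinery nor to the vesicle coats. HEK293 is a human embryonic kidney line, and HEK293doxERN2 cells hold a human ERN2 transgene with a FLAG tag, inducible by doxycycline. For 24 hours the cells were given doxycycline at 10 or 100 ng/mL or none (0 ng/mL), and either 200 nM thapsigargin or the same volume of DMSO (vehicle) for 3 hours, which gave 6 groups of 3 libraries and 18 libraries in all. Every group carries the transgene, and each induced group received doxycycline, so the drug and ERN2 cannot be told apart. Cells lacking the transgene were not analysed here. Whether the line is 1 clone, and whether the libraries of a group came from separate cultures, is not given in the sources used here, so p-values measure the spread between these libraries, which may be technical.

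ERN2 (IRE1β) is the mucosal paralogue of the ER stress sensor ERN1, and both cut XBP1 mRNA so that it can be spliced into a form that encodes an active transcription factor. XBP1 is best known for raising chaperones, translocon subunits, glycosylation enzymes and ER-to-Golgi transport genes. Thapsigargin blocks the pump that fills the ER with calcium and thereby starts all branches of the unfolded protein response, which besides XBP1 include the ATF6 and the PERK-ATF4 pathways. The question for the 6 genes was whether the difference seen with doxycycline alone was also present in thapsigargin-treated cells, and whether thapsigargin alone raised them.

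The roles of the 6 genes have little in common. SND1 encodes a Tudor domain protein with staphylococcal nuclease folds that works as a transcriptional coactivator and is found in the RNA-induced silencing complex. CDK2AP2 is a small relative of the CDK2-binding protein CDK2AP1 and is found with the NuRD chromatin complex. HID1 is a peripheral protein of the Golgi that is needed to form dense core vesicles, so it does have a part in secretion although it is neither a chaperone nor a coat subunit. TRIM55 (MuRF2) is a ubiquitin ligase of muscle that binds microtubules and the sarcomere. BEST1 is a calcium-activated chloride channel of the retinal pigment epithelium. ARMCX3 is an armadillo-repeat protein of the mitochondrial outer membrane that takes part in mitochondrial transport. SND1, ARMCX3 and TRIM55 are also in the XBP1-motif gene list that the study drew up from these same vehicle libraries, so that listing is not independent evidence about them.

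On GRCh38 (GENCODE 29), SND1 lies at chr7:127652180-128092609 on the plus strand and CDK2AP2 at chr11:67506497-67508649 on the minus strand. HID1 lies at chr17:74950743-74973166 on the minus strand. BEST1 lies at chr11:61949821-61965515 and ARMCX3 at chrX:101622797-101627843, both on the plus strand. BEST1 shares 1267 exonic bases with FTH1, the ferritin heavy chain gene on the opposite strand. Whether reads were counted by strand is not given in the sources used here, so reads from the shared bases may belong to either gene. LRRC4 lies inside SND1 on the opposite strand with 0 shared exonic bases.

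RefSeq promoter windows of 2 of the 6 genes, SND1 and CDK2AP2, were searched for the letters that XBP1 and ATF factors are known to bind. CCAAT was searched too and is not taken here as letters that these factors bind. Whole windows were searched, and they may run past the bases printed here. The SND1 window is printed up to the gene's GENCODE start because SND1 is the gene whose difference held in both treatments. It shows the 236 bases before the GENCODE start of SND1 at chr7:127651944-127652179 on the plus strand (GRCh38.p14), with the single ACGT core and both ATTGG boxes (CCAAT on the other strand) in capitals:
SND1: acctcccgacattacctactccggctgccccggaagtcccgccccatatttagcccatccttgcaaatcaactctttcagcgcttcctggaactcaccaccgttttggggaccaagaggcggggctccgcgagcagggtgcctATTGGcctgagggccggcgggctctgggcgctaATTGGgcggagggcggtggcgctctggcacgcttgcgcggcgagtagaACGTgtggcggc
On both strands, neither window held the UPRE TGACGTGG (0.729% of 35116 windows hold it), CCACGT (9.72%), the full ERSE (0.0769%), ERSE-II (0.0541%) or the CRE TGACGTCA (1.85%). The UPRE, the CRE and CCACGT overlap with the shorter ACGT or one another. ACGT was found once in SND1 and 0 times in CDK2AP2, and occurs in 33.3% of all windows. CCAAT was found 2 times in SND1 and 6 times in CDK2AP2 on either strand. At least 2 copies occur in 10.8% of windows and at least 6 in 0.122%. ACGT and CCAAT were added to the search after the first motifs had been looked up, and a match of letters is a description, not a binding site.

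Library totals ran from 14876416 to 24652240 counts. ERN2, the induced gene, had 6.57 to 9.10 CPM (counts relative to the library total, scaled by TMM over the 18 libraries) in uninduced vehicle libraries, 22.5 to 55.9 at 10 ng/mL and 248.7 to 309 at 100 ng/mL, and in thapsigargin libraries 10.4 to 14.2, 32.1 to 112 and 175 to 272. The HEK293 markers VIM, INA, NEFL, NEFM and PAX2 were present in every group. The labels name colon crypt cells in the RNA extraction step, but of 7 colon markers CLCA1 and TFF3 had 0 reads in every library and KRT20, MUC2 and VIL1 at most 5, while CDX2 had 3.36 to 8.83 CPM and LGR5 8.53 to 35.5 CPM. Replicate 2 of the uninduced thapsigargin group stood apart from its group, with 4773 CPM of the chaperone HSPA5 against 3096 and 3046, and 156 CPM of the coat gene SEC24D against 70.2 and 60.7. All 6 genes were highest in that library among their group. In the 10 ng/mL thapsigargin group 5 of the 6 were highest in replicate 2, so the fold changes that rest on these libraries are also given without them.

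SND1 was at one level in uninduced cells and at a higher one in induced cells, whatever the treatment. Uninduced vehicle libraries had 174, 163 and 189 CPM in replicates 1, 2 and 3, and uninduced thapsigargin libraries 149, 199 and 195. With vehicle, the 10 ng/mL libraries had 292, 338 and 418 CPM and the 100 ng/mL libraries 353, 477 and 382. With thapsigargin, they had 248, 315 and 384 CPM at 10 ng/mL and 383, 341 and 324 at 100 ng/mL. Every induced library lay above every uninduced one. Ordered by mean, from 175 ± 13.0 CPM (SD, n = 3) in uninduced vehicle cells to 404 ± 65.0 in vehicle cells at 100 ng/mL, neighbouring groups overlapped except at the step from uninduced thapsigargin cells to thapsigargin cells at 10 ng/mL.

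CDK2AP2 was lowest in uninduced vehicle cells and had its highest means under thapsigargin. Uninduced vehicle libraries had 44.8, 42.4 and 40.5 CPM. Vehicle libraries at 10 ng/mL had 76.9, 99.8 and 104 CPM and those at 100 ng/mL 94.6, 144 and 92.8. Uninduced thapsigargin libraries had 141, 195 and 153 CPM. Induction gave 149, 245 and 201 CPM with the low dose, then 173, 183 and 110 with the high dose. The uninduced vehicle libraries lay below all others, and the 3 thapsigargin groups overlapped.

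HID1 was also lowest in uninduced vehicle cells, at 39.0, 30.7 and 34.3 CPM. Its vehicle libraries at 10 ng/mL had 66.5, 72.6 and 69.9 CPM and those at 100 ng/mL 74.0, 87.2 and 62.4. Uninduced thapsigargin libraries had 41.7, 75.03 and 41.7 CPM, those at 10 ng/mL 57.8, 94.7 and 66.9, and those at 100 ng/mL 66.8, 50.3 and 42.2. The only uninduced library within the range of the induced vehicle libraries was replicate 2 of the thapsigargin group.

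ARMCX3 had 71.5, 76.4 and 64.1 CPM in uninduced vehicle libraries, below all other libraries. With vehicle it had 106, 104 and 94.5 CPM after 10 ng/mL, and 129, 123 and 104 after 100 ng/mL. With thapsigargin it had 115, 146 and 95.05 CPM in uninduced libraries, 135, 168 and 107 with the low dose, and 135, 149 and 141 with the high dose. Above the uninduced vehicle group, no neighbouring groups in the order of means were separate.

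TRIM55 and BEST1 were measured with few reads, 13 to 70 and 12 to 177 per library. TRIM55, at chr8:66126896-66175487 on the plus strand, had 1.25, 0.706 and 0.743 CPM in uninduced vehicle libraries, 1.94, 1.40 and 1.86 at 10 ng/mL and 3.03, 2.88 and 1.91 at 100 ng/mL. With thapsigargin it had 1.57, 2.88 and 1.59 CPM, then 1.62, 2.23 and 1.60, then 1.98, 2.39 and 1.91 at the same doses. BEST1 had 0.9501, 0.651 and 1.26 CPM in uninduced vehicle libraries, 2.08, 2.21 and 0.755 at 10 ng/mL and 6.52, 2.97 and 2.13 at 100 ng/mL. Its thapsigargin libraries had 3.09, 5.98 and 2.85 CPM, then 3.32, 8.04 and 4.81, then 5.16, 6.97 and 3.46. For TRIM55 the uninduced vehicle group lay below all others, and for BEST1 replicate 3 of the 10 ng/mL vehicle group fell within the uninduced range.

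**Figure D1:**
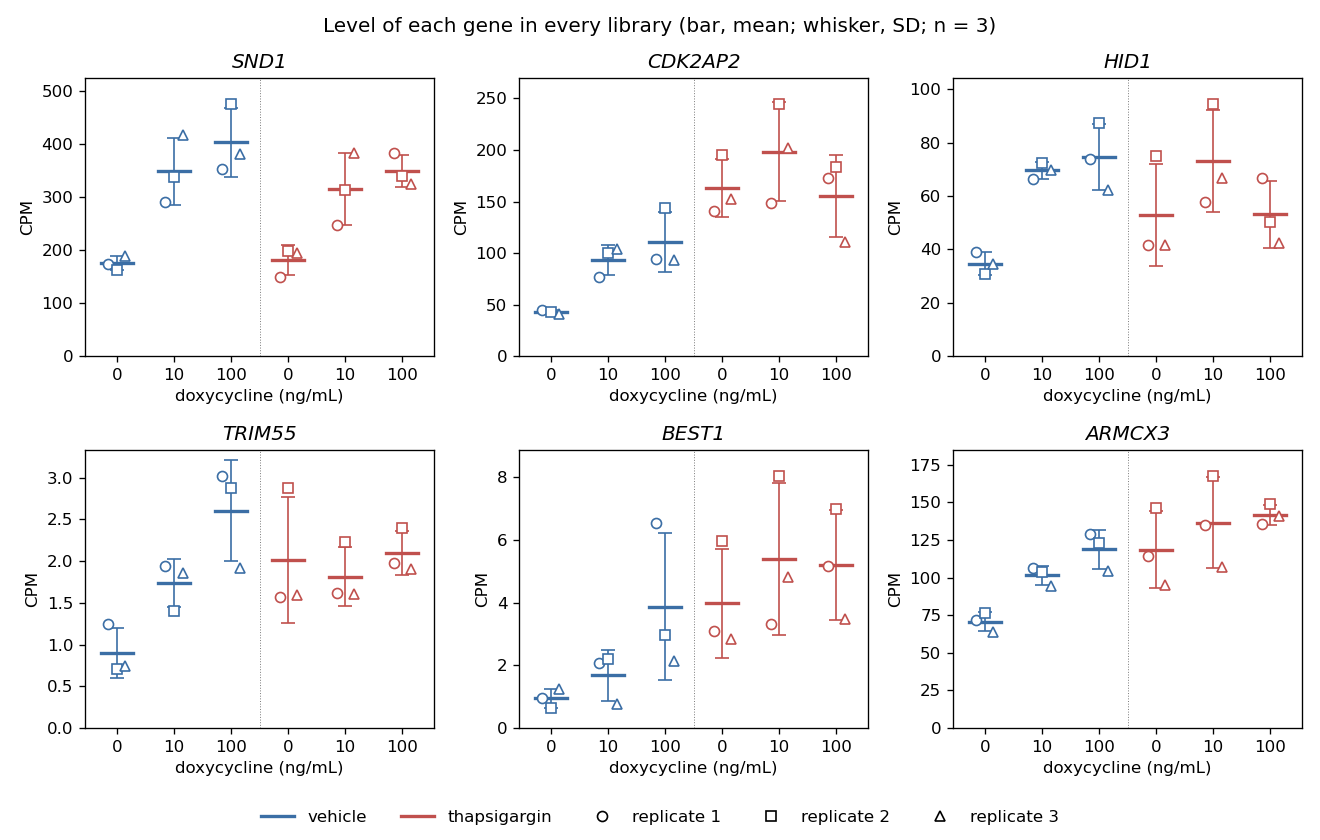
Level of each gene in CPM (y axis, from 0) in every library by doxycycline dose, with vehicle in blue and thapsigargin in red. Open symbols are replicates 1 to 3, horizontal bars are group means and whiskers are SD (n = 3). SND1 is the gene whose uninduced thapsigargin libraries (149 to 199 CPM) stay near the uninduced vehicle libraries (163 to 189 CPM).

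The vehicle libraries chose the 6 genes, so their differences there are a description. Calls throughout use edgeR's quasi-likelihood test with an adjusted p (Benjamini-Hochberg, over all genes tested) under 0.01, and all 6 genes passed the filter on low counts in every comparison. Where counts of the 6 with an unadjusted p under 0.05 are given below, the share over all genes was not computed. At 10 ng/mL 3 of the 6 met the threshold in the higher direction, against 0.138% of all genes tested, and 5 of the 6 had every induced library above every uninduced one, against 14.4%. SND1 differed by 0.99 on the log2 scale, CDK2AP2 by 1.13 and HID1 by 1.002. The rest had log2 differences of 0.93 (TRIM55), 0.81 (BEST1) and 0.52 (ARMCX3). All 3 calls were lost when any 1 uninduced vehicle library or replicate 2 of the 10 ng/mL group was left out, and when all 6 groups were fitted together.

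At 100 ng/mL all 6 met the threshold, against 0.838% of all genes, and all 6 had separate groups, against 19.7%, with log2 differences from 0.71 (ARMCX3) to 1.97 (BEST1). SND1 differed by 1.16, CDK2AP2 by 1.34, HID1 by 1.06 and TRIM55 by 1.48. BEST1 had the highest adjusted p of the 6, 0.00621. Just inside the threshold was MUTYH (log2 difference 0.67, adjusted p 0.00967) and just outside DPH7 (0.54, adjusted p 0.0101). BEST1 missed the threshold without replicate 1 or 2 of the uninduced group or replicate 1 of the induced group (adjusted p 0.0213, 0.0201 and 0.0108), with all 6 groups fitted (0.0139) and with a replicate block (0.0106). TRIM55 missed it without replicate 2 or 3 of the uninduced group or replicate 1 of the induced group (adjusted p 0.0264, 0.027 and 0.0144).

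Between 10 and 100 ng/mL with vehicle, 0 of the 6 met edgeR's threshold (0.0137% of all genes did in the higher direction), 1 had an unadjusted p under 0.05, and DESeq2 called 0. That one was BEST1, with a log2 difference of 1.18 (95% interval 0.14 to 2.22). At 100 ng/mL its replicate 1 had 6.52 CPM, against 2.97 and 2.13 in replicates 2 and 3. Over the alternative analyses its log2 difference ran from 0.58 to 1.46. The log2 differences of SND1, CDK2AP2, HID1 and ARMCX3 between these doses were 0.19, 0.22, 0.07 and 0.20, while that of the transgene ERN2 was 2.92.

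In thapsigargin-treated cells, which the choice of genes did not use, the difference at 100 ng/mL was present for SND1 and was not found for the other five. SND1 rose 1.93-fold (log2 fold change 0.95, SE 0.15, 95% interval 0.63 to 1.27, adjusted p 0.000647), with every induced library above every uninduced one. It was the only 1 of the 6 called, against 1.53% of all genes in the higher direction. One gene of the 6 was fully separate, as were 16.1% of all genes in that direction. The call held in 11 of 11 alternative analyses, with adjusted p between 3.36e-07 and 0.00652.

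The remaining genes had these values in thapsigargin libraries at 100 ng/mL. CDK2AP2 had a log2 fold change of -0.07 (95% interval -0.51 to 0.37), against 1.34 with vehicle. HID1 had 0.00 (-0.53 to 0.54), against 1.06. ARMCX3 had 0.25 (-0.12 to 0.62), against 0.71. TRIM55 had 0.04 (-0.69 to 0.77) and BEST1 0.37 (-0.38 to 1.12), against 1.48 and 1.97. Adjusted p for these 5 genes were between 0.325 and 0.997. Without replicate 2 of the uninduced thapsigargin group, the library that stood apart, the log2 fold changes were 0.09 for CDK2AP2, 0.36 for HID1, 0.44 for ARMCX3 (unadjusted p 0.0312), 0.41 for TRIM55 and 0.81 for BEST1 (unadjusted p 0.0397). None of these 5 passed edgeR's threshold without it (adjusted p 0.127 to 0.819), and SND1 did (log2 fold change 1.03, adjusted p 0.00183).

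Genes of the stress response moved in the same thapsigargin libraries. XBP1 fell by 1.16 on the log2 scale at 100 ng/mL (adjusted p 3.65e-05), HSPA5 fell by 0.80 (adjusted p 0.00688) and DDIT3, the pro-apoptotic factor CHOP, fell by 0.71 (adjusted p 0.00506), whereas ERN2 rose by 4.08 (adjusted p 5.11e-07). ATF3, a stress-induced transcription factor, had -0.58 (adjusted p 0.0264), SEC24D 0.58, DNAJB9 0.05 and BHLHA15 0.44, none of which passed. The part of these changes in the values of the 6 genes was not tested. Counts here are per gene symbol and do not separate spliced from unspliced XBP1 mRNA, so the spliced form was not measured.

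The 121 genes called higher with vehicle at 100 ng/mL give the setting for SND1. All 121 were tested in thapsigargin cells, where 8 were called higher (6.61%), 5 were called lower and 43 had a fold change below 0. Of all genes tested there 1.53% were called higher and 9% lower, and 7739 of 14358 had a fold change above 0. The median log2 fold change was 0.11 for the 121 against 0.04 for all genes. SND1 had the fourth highest log2 fold change of the 121. ERN2 was among the 8.

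**Figure D2:**
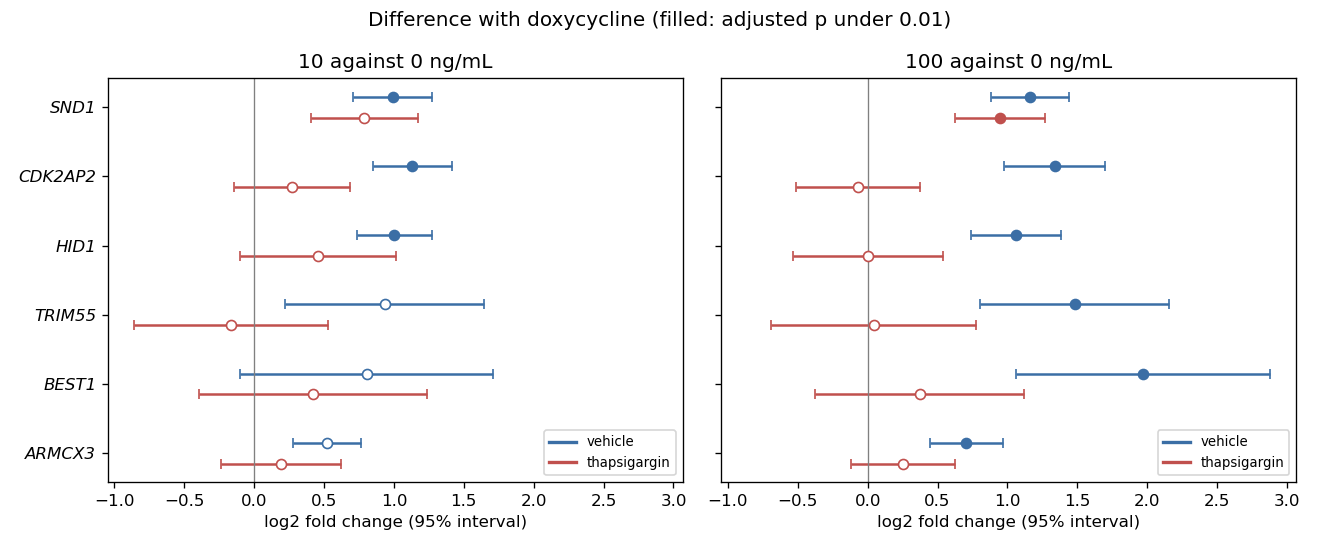
Log2 fold change of each gene with doxycycline (x axis) at 10 ng/mL (left) and 100 ng/mL (right), in vehicle (blue) and thapsigargin (red) cells. Points are edgeR estimates, bars are 95% intervals, and filled points have an adjusted p under 0.01. At 100 ng/mL all 6 vehicle points are filled, and of the thapsigargin points SND1 is filled, at 0.95.

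At 10 ng/mL in thapsigargin cells 0 of the 6 passed edgeR's threshold, as did 0% of all genes, while 1 of the 6 (SND1) had an unadjusted p under 0.05 and DESeq2 called 1 (SND1, adjusted p 0.00712). Among all genes DESeq2 called 2 higher there. SND1 had a log2 fold change of 0.79 (95% interval 0.40 to 1.17, edgeR adjusted p 0.39), and every induced library was above every uninduced one, which held for 4.6% of all genes. HID1 had 0.45, BEST1 0.42, CDK2AP2 0.27, ARMCX3 0.19 and TRIM55 -0.17, and for these 5 genes the groups overlapped.

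In this 1 of 9 pairwise comparisons all 3 pairs of same-numbered libraries deviated together, so the fit with replicate as a block is given beside it. The sample titles number the replicates without saying that they pair. The pairing was read from these same counts, so p-values of the block fit may be too small. With the block 2 of the 6 were called, against 1.36% of all genes in the higher direction. SND1 rose by 0.78 on the log2 scale (SE 0.06, edgeR adjusted p 1.03e-07), with same-numbered libraries at ratios of 1.67, 1.58 and 1.97. HID1 rose by 0.48 (SE 0.07, adjusted p 0.000269), with ratios of 1.39, 1.26 and 1.60. CDK2AP2 had 0.26 (adjusted p 0.0109), ARMCX3 0.19 (0.0396), BEST1 0.42 (0.145) and TRIM55 -0.14 (0.783). All 3 ratios were above 1 for SND1, CDK2AP2, HID1, BEST1 and ARMCX3. The share of all genes with 3 ratios above 1 was not computed, so this count has no background. Leaving out replicate 2 of the uninduced group alone, HID1 had 0.80, BEST1 0.85, CDK2AP2 0.42, ARMCX3 0.37 and TRIM55 0.19. When replicate 2 of the induced group alone was left out, these 5 genes had 0.24, 0.02, 0.10, 0.03 and -0.33, while SND1 stayed at 0.80 or above in both. Without replicate 2 of both groups, an alternative chosen after seeing the data, SND1 had 0.87, HID1 0.57 and TRIM55 0.02, and 0 of the 6 passed.

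**Figure D3:**
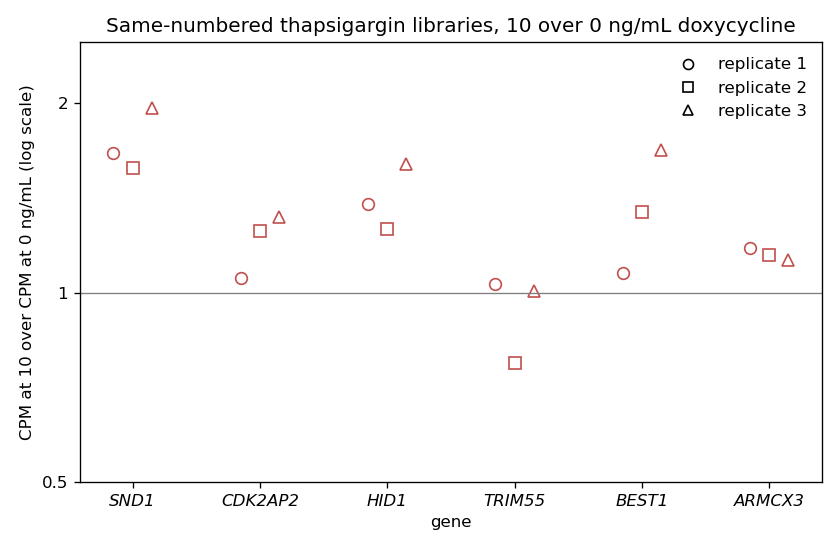
Ratio of CPM at 10 ng/mL to CPM at 0 ng/mL (y axis, log scale) between same-numbered thapsigargin libraries for each gene (x axis), with 1 symbol per replicate number. All 3 symbols of SND1 lie between 1.58 and 1.97, and those of HID1 between 1.26 and 1.60.

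From 10 to 100 ng/mL in thapsigargin cells 0 of the 6 passed edgeR's threshold (0.235% of all genes did in the higher direction and 5.32% in the lower), 0 had an unadjusted p under 0.05 and DESeq2 called 0. SND1 had a log2 fold change of 0.15 (95% interval -0.22 to 0.52). CDK2AP2 had -0.35 (-0.82 to 0.13) and HID1 -0.46 (-0.93 to 0.01), or -0.13 and -0.19 without replicate 2 of the 10 ng/mL group. BEST1 had -0.05, or 0.40 without that library.

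Thapsigargin alone, compared with vehicle in uninduced cells, raised CDK2AP2, BEST1 and ARMCX3, and no rise was found for SND1. This comparison shares the uninduced vehicle libraries with the one that chose the genes, in which they were low, so it is not independent of that choice. In it 3 of the 6 were called higher by edgeR, against 6.45% of all genes. CDK2AP2 rose 3.86-fold (log2 fold change 1.95, SE 0.13, adjusted p 8.06e-07), BEST1 4.20-fold (2.07, SE 0.35, adjusted p 0.00127) and ARMCX3 1.69-fold (0.76, SE 0.15, adjusted p 0.00289).

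TRIM55 (log2 fold change 1.16, adjusted p 0.0298) and HID1 (0.62, adjusted p 0.0417) did not pass, although each thapsigargin library was above each vehicle library. Such separation was seen for 5 of the 6 genes and for 20% of all genes. SND1 differed 1.04-fold (95% interval 0.866 to 1.25, adjusted p 0.78). The median log2 fold change of the 6 was 0.96, against -0.01 for all genes.

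The calls of CDK2AP2 and BEST1 held in 11 of 11 alternatives each and that of ARMCX3 in 8. Without replicate 2 of the thapsigargin group, the library that stood apart, CDK2AP2 had a log2 fold change of 1.79, BEST1 1.64 (adjusted p 0.00492), ARMCX3 0.58 (adjusted p 0.0115), TRIM55 0.81, HID1 0.27 and SND1 -0.02. ARMCX3 also missed the threshold without replicate 1 or 3 of the vehicle group (adjusted p 0.0154 and 0.0133), and HID1 passed it without replicate 3 of the thapsigargin group (0.77, adjusted p 0.00422). FTH1, the gene overlapping BEST1, had a log2 fold change of -0.29 (adjusted p 0.0487) here and -0.04 with doxycycline at 100 ng/mL in vehicle cells, so it did not rise with BEST1 in either comparison. In thapsigargin cells the mean of FTH1 was 255 CPM uninduced, 303 at 10 ng/mL and 298 at 100 ng/mL. That of BEST1 was 3.97, 5.39 and 5.20, so both means were higher with induction there, although the BEST1 libraries overlapped between the groups. Whether reads of FTH1 were counted as BEST1 was not tested.

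In induced cells thapsigargin was compared with vehicle at each dose. With 10 ng/mL 0 of the 6 passed edgeR's threshold (1.16% of all genes did in the higher direction), 3 had an unadjusted p under 0.05 and DESeq2 called 2. Among all genes DESeq2 called 650 higher, where edgeR called 169. CDK2AP2 had a log2 fold change of 1.08 (95% interval 0.67 to 1.49, edgeR adjusted p 0.0104) and BEST1 1.68 (0.75 to 2.61, adjusted p 0.0396), and ARMCX3 had 0.42. In these 3 genes every thapsigargin library was above every vehicle library, as for 15.6% of all genes. CDK2AP2 passed without replicate 1 or replicate 3 of the thapsigargin group (adjusted p 0.00197 and 0.00465). SND1, HID1 and TRIM55 had -0.15, 0.07 and 0.06. Leaving out replicate 2 of the thapsigargin group, CDK2AP2 had 0.89, BEST1 1.26, ARMCX3 0.24, SND1 -0.16, HID1 -0.18 and TRIM55 -0.13.

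At 100 ng/mL 0 of the 6 passed (0.18% of all genes did in the higher direction and 0.0208% in the lower), 2 had an unadjusted p under 0.05 and DESeq2 called 0. CDK2AP2 had a log2 fold change of 0.52 (95% interval 0.02 to 1.02) and HID1 -0.46 (-0.90 to -0.03). HID1 passed in the lower direction without replicate 1 of the thapsigargin group (-0.69, adjusted p 0.00621). SND1 had -0.19, TRIM55 -0.30, BEST1 0.44 and ARMCX3 0.28. Both of these comparisons share the induced vehicle libraries that chose the genes.

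**Figure D4:**
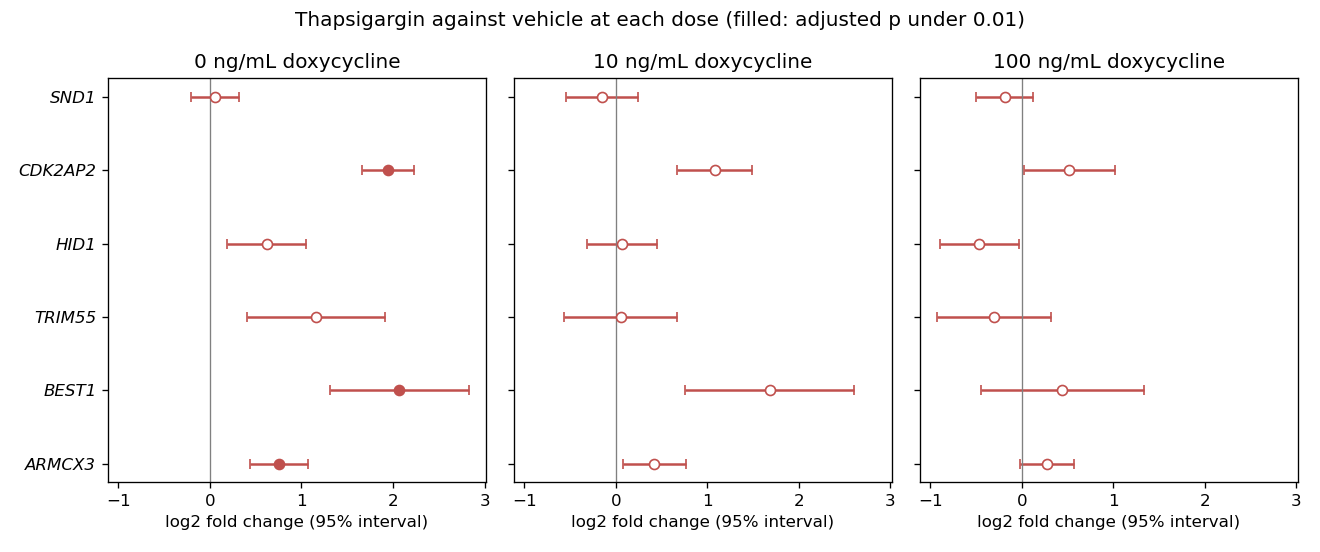
Log2 fold change of each gene between thapsigargin and vehicle (x axis) at 0, 10 and 100 ng/mL doxycycline (panels from left to right). Points are edgeR estimates, bars are 95% intervals, and filled points have an adjusted p under 0.01. CDK2AP2 goes from 1.95 at 0 ng/mL to 1.08 and 0.52, and SND1 stays between -0.19 and 0.06.

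Whether the doxycycline difference itself differed between thapsigargin and vehicle cells was tested as an interaction in 12 libraries. It uses every vehicle library of the dose, and the choice of genes for a large vehicle difference favours a value below 0. At 100 ng/mL 0 of the 6 passed edgeR's threshold (0.0339% of all genes did in the lower direction), 4 had an unadjusted p under 0.05 and DESeq2 called 1 (CDK2AP2, adjusted p 0.000403). Among all genes DESeq2 called 340 in either direction, where edgeR called 6. The log2 interaction was -1.34 for CDK2AP2 (95% interval -1.96 to -0.73, edgeR adjusted p 0.0428), -1.003 for HID1 (-1.69 to -0.31, adjusted p 0.0986), -1.38 for TRIM55 (adjusted p 0.102) and -1.55 for BEST1 (adjusted p 0.151).

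ARMCX3 had an interaction of -0.40 (95% interval -0.86 to 0.06). For SND1 it was -0.16 (-0.55 to 0.24, adjusted p 0.623), so a loss of up to 0.55 of its doxycycline difference on the log2 scale lies within the interval. Without replicate 1 of the 100 ng/mL thapsigargin group, CDK2AP2 (-1.48, adjusted p 0.0036) and HID1 (-1.25, adjusted p 0.00964) passed. Without replicate 2 of the uninduced thapsigargin group the interactions were -1.24 for CDK2AP2, -0.70 for HID1, -1.07 for TRIM55, -1.17 for BEST1, -0.26 for ARMCX3 and -0.13 for SND1, and none passed. In the fit of all 12 libraries XBP1 had an interaction of -2.14 (adjusted p 1.2e-06) and HSPA5 -1.58 (adjusted p 0.00897).

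At 10 ng/mL 0 of the 6 interactions passed edgeR's threshold, as did 0% of all genes, 2 had an unadjusted p under 0.05 and DESeq2 called 0. They ran from -1.10 (TRIM55) to -0.20 (SND1). CDK2AP2 had -0.86 (95% interval -1.38 to -0.34). They ran, without replicate 2 of the uninduced thapsigargin group, from -0.75 (TRIM55) to 0.04 (BEST1), and without replicate 2 of the 10 ng/mL thapsigargin group from -1.27 (TRIM55) to -0.21 (SND1).

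Relatives and partners of the 6 genes were taken from general knowledge. Of 15 relatives (among them CDK2AP1, TRIM54, BEST3 and the other ARMCX genes) 11 or 12 were tested in each comparison. In any of them 0 passed edgeR's threshold. Of all genes at most 6.45% were called higher and 9% lower in a comparison, so 0 among so few genes does not set the relatives apart. With vehicle at 100 against 0 ng/mL their median log2 difference was 0.28, with 6 of 11 above 0, against -0.01 for all genes. ARMCX5 came nearest in uninduced cells with thapsigargin, with a log2 fold change of 0.63 (adjusted p 0.0116). Among 14 partners of CDK2AP2, which are NuRD subunits and the kinase CDK2, 1 was called lower in thapsigargin cells at 100 ng/mL. Of all genes 9% were. That was MBD3, a methyl-CpG-binding-domain subunit, which fell by 1.27 (adjusted p 0.00016).

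Among 7 partners of SND1 in RNA silencing and stress granules 1 was called higher in the same comparison, against 1.53% of all genes. That was DICER1, the nuclease that makes microRNAs, which rose by 0.83 (adjusted p 0.00449). In uninduced cells it fell by 0.79 with thapsigargin (adjusted p 0.000573), where 4.74% of all genes were called lower. Counts this small say nothing particular about these lists. Of 7 genes that work with HID1 in dense core vesicle formation and 7 that work with ARMCX3 in mitochondrial transport, 0 were called in the comparison at 100 ng/mL in either treatment. LRRC4, inside SND1 on the other strand, fell by 1.37 with vehicle and by 1.63 with thapsigargin at 100 ng/mL (adjusted p 0.00255 and 0.000342), the opposite direction to SND1.

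The genes whose levels tracked each member most closely over the 18 libraries were ranked by Pearson's r of log2 CPM among 15019 genes, as a description. The libraries share groups, and for the 18 pairs named here r of the deviations from the group means ran from 0.62 (TRIM55 with ALG2) to 0.96 (HID1 with COPG1). SND1 was closest to SEC24C, a COPII coat gene (r = 0.95), the translocon gene SEC61B (0.94) and ACADVL (0.94). HID1 was closest to the COPI gene COPG1 (0.98), the translocon gene SEC61A1 (0.92) and ST6GALNAC4 (0.92). ARMCX3 was closest to the COPII gene SEC24D (0.97), PPAPDC1B (0.95) and TRIM5 (0.93).

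CDK2AP2 was closest to the Golgi SNARE genes STX5 (0.98) and BET1L (0.97) and to FICD (0.97), which modifies HSPA5. TRIM55 was closest to BHLHA15, a secretory cell transcription factor (0.89), SEC23B (0.89) and ALG2 (0.88). BEST1 was closest to the stress hormone gene FGF21 (0.93), GTPBP2 (0.91) and LURAP1L (0.91). Between members r ran from 0.32 (SND1 with BEST1) to 0.86 (BEST1 with ARMCX3). With the transgene ERN2 r was 0.87 for SND1 and between 0.45 and 0.65 for the other five. The 18 libraries include the vehicle libraries that chose the genes for their rise with doxycycline. No r given here is therefore independent of that choice.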

How the data were processed

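The study's HEK293doxERN2 libraries were made with a stranded mRNA kit, sequenced single-end, aligned with STAR and counted in the VIPER pipeline by the authors, who deposited raw counts per gene symbol without normalization. The submitters' processing notes name hg38. The annotation, strand setting and STAR version are not given in the sources used here. Columns were matched to samples by the column number in the labels. The 6 genes and all lists were chosen with earlier results of these data known.

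Each comparison used only its own groups. Genes were kept by filterByExpr (minimum count 10), scaled by TMM and tested by the quasi-likelihood F test of edgeR 4.0.16 (R 4.3.3). P-values were adjusted by Benjamini-Hochberg across every tested gene, and the threshold of 0.01 was the study's own. SE was taken as the absolute log2 fold change over the root of F. CPM were scaled by TMM over the 18 libraries. Likeness used a prior count of 2. Named genes were the 6 members, 8 reference genes, listed relatives and partners that passed or lay at an extreme, overlapping genes, the 3 genes most like each member, and the genes beside the threshold. Alternatives were DESeq2 1.42.0, RLE size factors, no filter, a fit of all 6 groups, a replicate block, a threshold of 0.05 and leaving out each library. The scripts were tested on simulated data. Totals of 14876416 to 24652240 counts limit TRIM55 and BEST1 most. No pair of replicates agreed within sampling noise (chi-square per degree of freedom 7.09 to 61.2), so none was merged as a duplicate deposit, which does not show that they came from separate cultures.

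Replicate numbers come from the sample titles. Deviations from the group mean correlated between same-numbered libraries above 0.1 in all 3 pairs for 1 of 9 pairwise comparisons, 10 against 0 ng/mL with thapsigargin (r = 0.40, 0.34 and 0.47), so the numbers were taken to pair the samples there only.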

Additional observations from a re-analysis of the deposited data

How the results depend on the processing

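Of 804 recomputed log2 fold changes of the 6 genes, 728 kept their direction and side of the threshold, 26 came to pass it, 26 ceased to and 24 changed sign. The cause of these changes was not tested, except that leaving out a library or adding a block changes the residual degrees of freedom. The number of members called went from 3 to 0 with all 6 groups fitted (vehicle, 10 against 0 ng/mL) and from 0 to 1 with the replicate block (vehicle, 100 against 10). With thapsigargin, 10 against 0, it went from 0 to 1 with DESeq2 and to 2 with the replicate block. For thapsigargin against vehicle in uninduced cells it went from 3 to 5 with the replicate block and at a threshold of 0.05. At 10 ng/mL it went from 0 to 2 with DESeq2, without the filter and at a threshold of 0.05, to 1 with all 6 groups and to 3 with the replicate block. For the interaction at 100 ng/mL it went from 0 to 1 with DESeq2, without the filter and at a threshold of 0.05. The block changed no other count of members by over 1.5 times, though BEST1 with vehicle at 100 ng/mL missed the threshold with it (adjusted p 0.0106). Outside the 1 comparison where numbers were taken to pair the samples, deviations of same-numbered libraries did not correlate above 0.1 in all 3 pairs. Some pairs did. For thapsigargin against vehicle r was 0.08, 0.20 and 0.27 in uninduced cells and 0.50, -0.03 and 0.44 at 10 ng/mL. With vehicle at 100 against 10 ng/mL it was 0.52, 0.28 and -0.02. Over all pairs r ran from -0.37 to 0.52. Whether the numbers pair samples in these comparisons was not tested.

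With 1 library left out, the number called ran from 0 to 4 and from 4 to 6 (vehicle, 10 and 100 against 0 ng/mL), stayed at 1 (thapsigargin, 100 against 0), and ran from 2 to 4, 0 to 1 and 0 to 1 for thapsigargin against vehicle at 0, 10 and 100 ng/mL and from 0 to 2 for the interaction at 100 ng/mL. It stayed at 0 in the other four comparisons.

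Sign changes concerned log2 fold changes between -0.38 and 0.22 in the reported fit, which passed the threshold neither there nor after the change. With all 6 groups fitted, HID1 (-0.054) and TRIM55 (-0.019) changed sign in thapsigargin cells at 100 against 0 ng/mL and ARMCX3 (-0.0010) at 100 against 10. Without replicate 2 of both groups TRIM55 did at 10 against 0 (0.019). With 1 library left out, the log2 fold changes that crossed 0 ran from -0.011 to 0.32 (CDK2AP2) and -0.047 to 0.17 (HID1) with vehicle at 100 against 10 ng/mL. With thapsigargin they ran from -0.33 to 0.19 (TRIM55) at 10 against 0, from -0.19 to 0.36 (HID1), -0.12 to 0.41 (TRIM55) and -0.21 to 0.13 (CDK2AP2) at 100 against 0, and from -0.30 to 0.40 (BEST1) and -0.079 to 0.26 (ARMCX3) at 100 against 10. For thapsigargin against vehicle they ran from -0.021 to 0.18 (SND1) in uninduced cells and from -0.13 to 0.13 (TRIM55), -0.32 to 0.0051 (SND1) and -0.18 to 0.21 (HID1) at 10 ng/mL, and for the interaction at 10 ng/mL from -0.80 to 0.042 (BEST1).

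The count of all genes called, the background of each comparison, depended more on the analysis. With vehicle it was 28, 1203 and 356 (10 and 100 against 0, 100 against 10) and ranged over the alternatives that kept every library and the threshold from 3 to 623, 750 to 1616 and 316 to 1224. With thapsigargin it was 0, 1512 and 805 and ranged from 0 to 564, 1390 to 2641 and 384 to 2054. For thapsigargin against vehicle it was 1611, 212 and 29 and ranged from 1273 to 3571, 205 to 3620 and 4 to 941, and for the interactions 0 and 6, ranging from 0 to 2 and 3 to 340. With DESeq2, 98 of 352 calls were in the higher direction with vehicle at 10 ng/mL, against 20 of 28.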
